A study of Homo sapiens with 22 samples.

Results

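The CSH1-high cells of day 11 were the kept cells in which CSH1, the gene of placental lactogen, reached 200 CPM or more. CPM are the unique molecular identifiers (UMIs, counts of captured transcripts) of a gene, scaled to the same fixed total in every cell or sum of cells. These cells numbered 513 of 6207 kept cells of day 11, and of 41975 kept cells in the whole series. A kept cell had at least 1000 detected genes and at most 10% of its UMIs on mitochondrial genes. The comparison cells were the 2345 kept cells of the same libraries in which no CSH1 UMI was counted. Both classes were chosen by the measured CSH1 count, so CSH1 levels are given as a description.

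The study followed human BJ cells, an established line of foreskin fibroblasts, while mRNA transfections reprogrammed them towards induced pluripotency in microfluidic chambers. Cells were harvested before the first transfection (D0), on D3, and then every 2 days until D15, cryopreserved, and measured by droplet single-cell RNA sequencing of transcript 3′ ends. All groups used here, D9, D11 and D13, came from the same cell line and protocol, with no untreated arm at these days. In the paper's protocol transfection had ended and another medium was used from day 9. Time since that change differed between D9, D11 and D13 and cannot be told apart from day. Pool B of D15, with 21 CSH1-high cells, was also in the fit, and no test of D15 is reported. Each day had 2 pools, A and B, each made from 4 chips, and D11 had 3 libraries because pool B was run as the aliquots B1 and B2. The labels do not place the chips of a pool in separate experiments. Nor do they state whether pools A and B were separate time courses, so the p-values below may not cover spread between experiments. These p-values rest on how the difference between classes varied between the pools of D9, D11 and D13. They also rest on the spread shared over genes, with 9.33 prior against 3 residual degrees of freedom.

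CSH1 lies in the growth hormone locus, a cluster of 5 closely related genes on chromosome 17. In the body GH1 is expressed in the pituitary, while CSH1, CSH2, CSHL1 and GH2 are known as genes of the placenta, where the syncytiotrophoblast secretes placental lactogen into the maternal blood. In the GRCh38 build CSH1 spans chr17:63894909-63896661, CSH2 chr17:63872012-63873766, CSHL1 chr17:63909597-63911341, GH1 chr17:63917200-63918839 and GH2 chr17:63880215-63881944, all on the minus strand.

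CSH1-high cells made up 7.83% of kept cells in library A (229 of 2925, exact binomial 95% interval 6.88 to 8.86%), 3.85% in B1 (11 of 286, 1.94 to 6.78%) and 9.11% in B2 (273 of 2996, 8.11 to 10.2%). By pool the share was 8.24% ± 0.583 (SD, n = 2 pools) on D11. By the same limit no cell passed on D0, D3 or D5, and 0 of 10776 cells on D0 allows a share of up to 0.0278% by a floor of 3 counts, or 0.0342% by the exact binomial interval. The share was 0.0489% ± 0.0127 on D7, 2.42% ± 0.00624 on D9, 2.64% ± 1.196 on D13 and 0.761% ± 0.333 on D15 (SD, n = 2 pools each). The D7 value rests on 1 cell in each pool (1 of 1727 and 1 of 2503). On D9 the aliquots of pool B had 3.15% (B1) and 1.57% (B2), which the small SD over pools does not show. The binomial intervals cover counting error only.

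**Figure D1:**
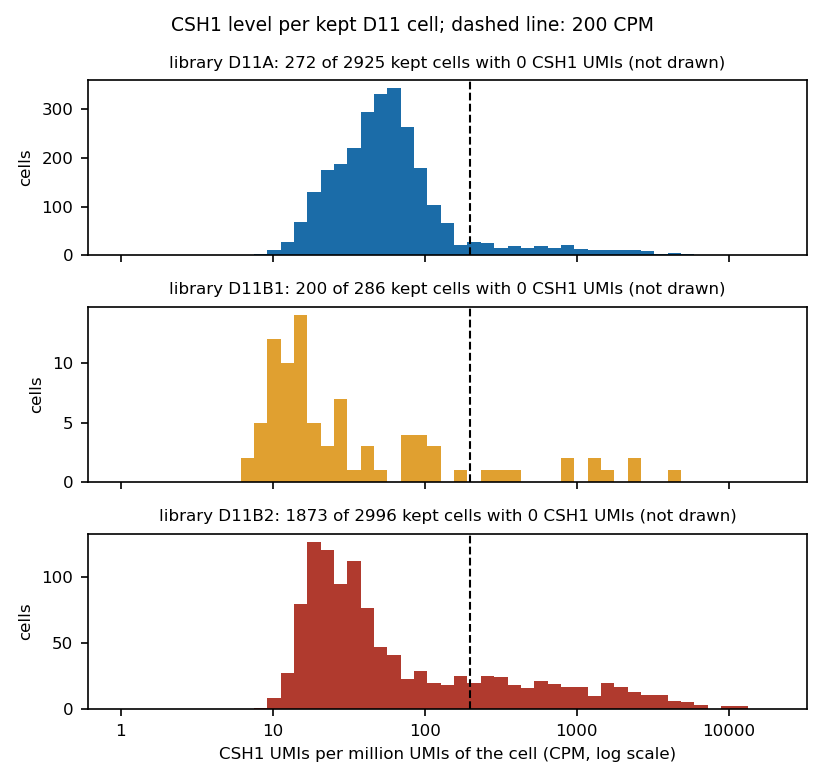
Number of kept D11 cells (y axis) by CSH1 level in CPM (x axis, log scale), 1 panel per library, for cells with at least 1 CSH1 UMI; the dashed line marks 200 CPM. Library A holds a broad peak below the line, with a median of 48.8 CPM over all its kept cells, and all 3 libraries have a tail above it.

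Within the CSH1-high class the level ran from 200.2 to 10954 CPM with a median of 715 CPM, which rested on 4 to 699 CSH1 UMIs per cell (median 50). The 5 cells just inside the limit had 200.2 to 202.5 CPM and the 5 just outside had 196.4 to 199.5 CPM. Between 180 and 220 CPM there were 56 cells, so the class is a range of levels and not a separate peak. CSH1-high cells were deeper than comparison cells, with a median of 82456 against 35959 UMIs in library A, 99541 against 66025 in B1 and 55551 against 39315 in B2.

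CSH1 UMIs were also counted in cells of another kind, unequally between libraries. In cells rich in fibroblast transcripts (29 genes summing to at least 20000 CPM), a CSH1 UMI was found in 84.8% of 922 cells in library A, in 13.5% of 96 cells in B1 and in 20.7% of 927 cells in B2. These cells carried 45.7, 2.57 and 22.4 CPM of CSH1, against 1042, 1369 and 1336 CPM in the CSH1-high class, at median depths of 44510.5, 49383 and 32576 UMIs. The value of B2 rested on 3 CSH1-high cells among the 927, and without the CSH1-high cells it was 7.22 CPM, against 45.6 CPM in A and 2.57 CPM in B1. In library A 272 cells had no CSH1 UMI, and how far depth and free RNA set the choice of comparison cells was not tested. The 20 named genes of D11 (below) kept their calls among cells with at least 20000 UMIs and with sums thinned to the smaller total. They also kept them with all cells under 200 CPM as comparison. In the clusters described at the end the cells of library A lay mostly apart from those of B1 and B2, and 78 of the 286 cells of B1 lay in a cluster of their own. Leaving out B1 gave 5052 called genes against 5047, and leaving out pool A gave 2592. Between libraries A and B2, 9 kept cells shared a barcode, as did 2 between B1 and B2 and 0 between A and B1, and none of them was CSH1-high in both.

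The other genes of the locus were counted in the same cells. CSH2, which encodes a nearly identical placental lactogen, was at 251 CPM in the CSH1-high and 12.6 CPM in the comparison cells of pool A, and at 347 and 2.10 CPM in pool B. GH2, placental growth hormone, was at 79.3 and 3.81 CPM in pool A and at 86.4 and 1.59 CPM in pool B. CSHL1 had 30.8 and 1.43 CPM in pool A and 40.3 and 0.370 CPM in pool B. GH1, the pituitary gene, had the lowest level, 7.74 and 0.190 CPM in pool A and 10.8 and 0.168 CPM in pool B. A CSH2 UMI was present in 91.3% of the CSH1-high cells of library A, 100% of B1 and 84.2% of B2. In the shallower comparison cells the share was 36.8% in A, 4.50% in B1 and 7.85% in B2.

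How the 5 genes divide their reads is uncertain. Of the 251 windows of 50 bases in the last 300 bases of the CSH1 transcript, 33.5% also occurred in a CSH2 transcript and 34.7% in a CSHL1 transcript. CSH1 took 73.9% of the locus UMIs in the CSH1-high cells of library A, 62.2% in B1 and 74.4% in B2. For that reason no test of the locus genes is reported, although they were among the 16919 genes fitted and counted below.

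Of the markers given for these cells beside CSH1 and CSH2, ACTA1 was high and the others were not. ACTA1, skeletal muscle actin, was at 2156 CPM in the CSH1-high cells of library A against 296 CPM in the comparison cells, at 1937 against 109 CPM in B1 and at 2267 against 266 CPM in B2. All 3 CSH1-high values lay above all 3 comparison values. CYP26A1, which degrades retinoic acid, was at 88.8 against 63.9 CPM in library A, 40.8 against 70.2 CPM in B1 and 88.9 against 104 CPM in B2, so the classes overlapped. MMP9, a matrix protease, was at 88.1 against 143 CPM in A, 107 against 148 CPM in B1 and 51.2 against 116 CPM in B2, which is lower in each library. The cells are therefore described here by CSH1 and ACTA1, and not by CYP26A1 or MMP9.

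ACTA1 was tested on D9 and D13, which the rule did not use. It rose in CSH1-high cells on both days, by 3.48 ± 0.178 (log2 fold change ± SE, edgeR quasi-likelihood adjusted p = 2.69e-07) on D9, from 57.9 and 62.6 CPM to 543 and 751 CPM, and by 3.84 ± 0.181 (edgeR adjusted p = 3.91e-07) on D13, from 118 and 56.4 CPM to 2036 and 546 CPM. CYP26A1 rose on D9 (1.28 ± 0.163, edgeR adjusted p = 0.000134) and on D13 (1.61 ± 0.137, edgeR adjusted p = 3.05e-05). On D11 CYP26A1 was lower in the CSH1-high cells of both pools among cells under 6000 CPM of fibroblast genes (a limit described below). It was at 61.1 against 95.4 CPM in pool A and 83.1 against 145 CPM in pool B. Among such cells CYP26A1 rose by 0.448 on D9 and 1.36 on D13 on the log2 scale. MMP9 fell on D13 (-1.16 ± 0.185, edgeR adjusted p = 0.00153) and did not pass on D9 (0.63 ± 0.192, edgeR adjusted p = 0.0316).

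The ACTA1 promoter is shown because ACTA1 was the highest marker, beside those of DPPA3, which rose, and CER1, which fell (below). Each line gives the 110 bases from 120 to 11 bases before the RefSeq start, 5′ to 3′ along the gene, at chr1:229434105-229434214 on the minus strand, chr12:7711313-7711422 on the plus strand and chr9:14722744-14722853 on the minus strand of GRCh38.p14. Capitals mark CATTCC, the core recognised by TEAD factors, and TATAAA, the TATA box, on either strand.
ACTA1: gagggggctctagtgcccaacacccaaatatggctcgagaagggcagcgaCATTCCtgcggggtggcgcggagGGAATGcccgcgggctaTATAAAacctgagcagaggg
DPPA3: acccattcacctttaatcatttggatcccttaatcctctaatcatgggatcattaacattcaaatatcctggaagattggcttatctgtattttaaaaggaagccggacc
CER1: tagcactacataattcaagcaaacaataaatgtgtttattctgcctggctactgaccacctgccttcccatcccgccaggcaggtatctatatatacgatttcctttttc
The ACTA1 window held 2 CATTCC and 1 TATAAA, and the other windows held neither. Among 35116 RefSeq promoters, 5.16% held CATTCC in the same window, 0.202% held it at least 2 times and 5.44% held TATAAA. The motifs do not overlap one another, and a match is a description of the letters only.

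Most trophoblast genes were low in both classes. The 15 genes of the trophoblast lineage list summed to 129 CPM in the CSH1-high cells of pool A and 128 CPM in pool B, against 153 and 135 CPM in the comparison cells. The 41 syncytiotrophoblast genes found in the files summed to 95.1 and 85.2 CPM, against 186 and 162 CPM. CGA, the shared subunit of the placental gonadotropin, had 9 UMIs in all 513 CSH1-high cells and 22 in the 2345 comparison cells. This is 0.241 and 0.221 CPM, close in both classes. HSD3B1 had 0 and 0 UMIs, VGLL1 0 and 2, and GCM1 1 and 1. Of the 9 lineage genes tested, 3 rose and 2 fell on D11, with a median log2 fold change of -0.42 against -0.03 over all genes, of which 13.3% were higher and 16.5% lower. GATA3, a trophoblast and amnion factor, rose from 0.476 to 3.89 CPM in pool A and from 1.70 to 5.51 CPM in pool B (log2 fold change 2.10 ± 0.307, edgeR adjusted p = 0.000152). TFAP2C rose from 6.28 to 15.2 and from 11.2 to 21.7 CPM, TEAD4 also rose, and TFAP2A and KRT7 fell. Of the 16 syncytiotrophoblast genes tested, 3 rose and 6 fell. When both classes were limited to cells of low fibroblast transcripts, as described below, the lineage sums were 130.1 and 126 CPM in the CSH1-high cells against 122 and 104 CPM, with 3 rises and 1 fall and a median of 0.16, where 4.99% of all genes were higher and 2.15% lower. The syncytiotrophoblast sums were then 93.3 and 83.2 CPM against 111 and 96.0 CPM, with 3 rises and 1 fall.

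Across 16919 genes, 2254 were higher (13.3%) and 2793 lower (16.5%) in the CSH1-high cells of D11, at an edgeR adjusted p under 0.01 and a log2 fold change beyond 0.25. The total was 5047 (29.8%). Without pool A it was 2592 and without pool B 2739, and it was 656 when the pool term that pairs the classes was left out.

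NLRP7, a maternal-effect gene, was at 20.1 and 37.0 CPM in the CSH1-high cells of pools A and B, against 2.66 and 4.90 CPM in the comparison cells (log2 fold change 3.05 ± 0.183, edgeR adjusted p = 3.86e-07). In aliquot B1, with 11 CSH1-high cells, NLRP7 was at 8.68 against 6.86 CPM. NPPB, which encodes B-type natriuretic peptide, was at 97.5 and 221 CPM against 22.4 and 25.0 CPM (2.82 ± 0.288, edgeR adjusted p = 9.71e-06). NRK, a kinase known from placenta, was at 40.9 and 65.0 CPM against 8.28 and 13.9 CPM. In each of these genes both CSH1-high sums lay above both comparison sums. MT1M, a metallothionein, CR1L, NLRP2, a relative of NLRP7, DPPA3, a germ-cell and naive pluripotency factor, ABCA7, ZNF600 and DCLK1 rose by 2.02 to 2.22 on the log2 scale. DPPA3 was at 35.5 and 32.4 CPM against 5.14 and 10.5 CPM.

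LUM, lumican of the connective tissue matrix, was at 43.4 and 9.86 CPM in the CSH1-high cells against 445 and 235 CPM (-3.78 ± 0.462, edgeR adjusted p = 3.81e-05). EREG, DKK1, MMP1, DCN, PRRX1, POSTN, WFDC1, COL8A1 and EMP1 fell by 3.50 to 3.75 on the log2 scale. All 29 genes of the fibroblast list fell, with a median of -2.79, and the list summed to 5441 and 2923 CPM in the CSH1-high cells against 23176 and 18253 CPM. Among comparison cells, 40.9% were rich in fibroblast transcripts, against 0.780% of the CSH1-high cells.

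**Figure D2:**
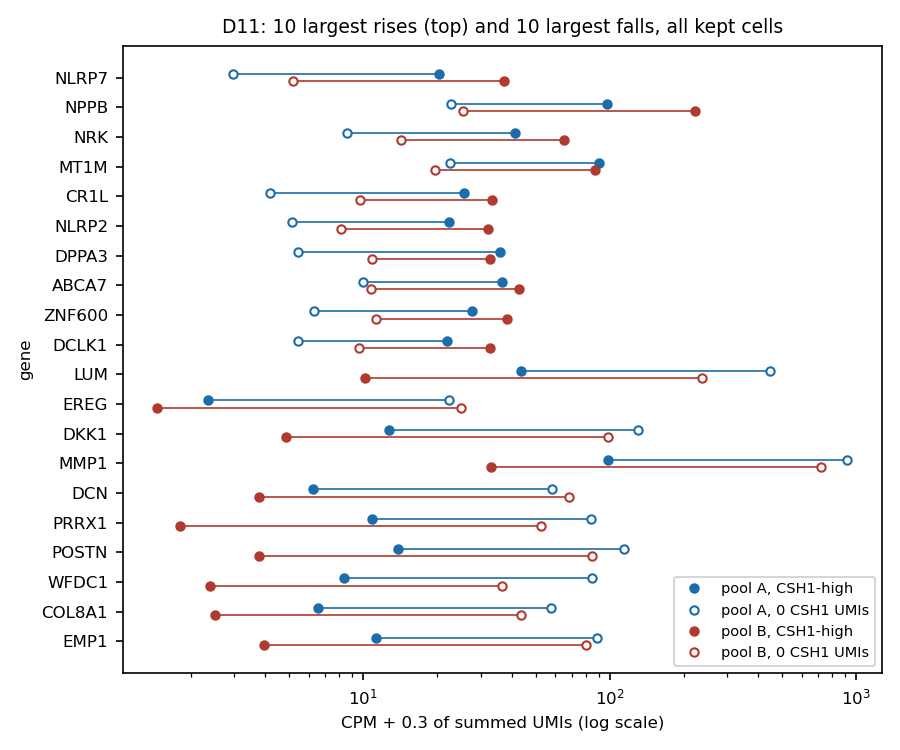
CPM + 0.3 of the summed UMIs (x axis, log scale) of the 10 genes with the largest rises and the 10 with the largest falls on D11 (y axis); filled points are CSH1-high cells, open points cells with 0 CSH1 UMIs, blue pool A and red pool B. In all 20 genes the filled points of both pools lie on the same side of the open points of their pool. The choice of genes required this.

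Because the comparison cells mixed fibroblast-rich and other cells, the comparison was repeated with both classes limited to cells under 6000 CPM of fibroblast genes, a limit chosen after seeing the data. This left 191 CSH1-high and 50 comparison cells in pool A and 274 and 889 in pool B. Here 844 genes were higher (4.99%) and 363 lower (2.15%) on D11, 1207 in all (7.13%). Without pool B the total was 204, without pool A it was 823, and without the pool term 5. Of the 10 largest falls above, DKK1 passed in this setting, at -1.41 (edgeR adjusted p = 0.000184), while the other 9 did not pass, and LUM had 0.08, DCN 0.44, MMP1 0.22, EREG 0.85 and COL8A1 0.12. LUM, DCN, PRRX1 and POSTN are themselves among the genes summed for the limit, so their values here are in part set by it.

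NPPB had the largest rise in these cells, from 9.96 to 69.5 CPM in pool A and from 12.02 to 228 CPM in pool B (4.21 ± 0.179, edgeR adjusted p = 2.33e-27). In this fit the p-values rest mainly on the spread shared over genes, with 54.0 prior against 3 residual degrees of freedom. The NPPB sums rested on a part of the cells, since 54.8% of the 513 CSH1-high cells had an NPPB UMI and 61 (11.9%) reached 200 CPM, against 17.4% and 1.75% of the comparison cells. In aliquot B1 NPPB was at 11.3 against 2.55 CPM over all kept cells. IL32, a cytokine, was at 176 and 244 CPM against 47.3 and 30.6 CPM (2.79 ± 0.166, edgeR adjusted p = 1.70e-20). UPP1, FAM35A, NRK, TXNRD2, PHLDA1, ANXA3, FAM101B and SPP1, which encodes osteopontin, rose by 1.51 to 1.80 on the log2 scale. SPP1 was the most abundant of them, at 938 and 1226 CPM against 374 and 475 CPM.

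The largest falls in these cells were those of LHX1 and CER1, both members of the mesendoderm list. LHX1, a homeobox factor, was at 6.33 and 1.69 CPM against 36.9 and 33.5 CPM (-3.17 ± 0.211, edgeR adjusted p = 2.00e-18). CER1, a secreted inhibitor of Nodal and BMP, was at 30.9 and 9.52 CPM against 119 and 186 CPM (-2.94 ± 0.209, edgeR adjusted p = 2.69e-17). CST1, RHOBTB3, FGF17, KIAA0101, IFI16, FZD7, HAPLN1 and DUSP6 fell by 1.34 to 2.17 on the log2 scale. Of 16 mesendoderm genes tested, 12 fell and 1, T (brachyury), rose, with a median of -1.66, where 2.15% of all genes fell and 4.99% rose. Before the limit on fibroblast genes 8 fell and 1 rose, where 16.5% of all genes fell and 13.3% rose. Over all D11 cells of both classes, 55 of the 2345 comparison cells (2.35%) and 1 CSH1-high cell passed 1000 CPM of CER1. A CER1 UMI was present in 80.3% of the CSH1-high and 46.3% of the comparison cells in library A, 72.7% and 25.0% in B1 and 26.4% and 14.9% in B2. An LHX1 UMI was present in 40.2% and 20.6% in A, 9.09% and 9.50% in B1 and 6.96% and 7.21% in B2. The CSH1-high cells were the deeper ones in each library, and the part of depth in these shares was not tested.

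The mesendoderm sums also differed by cluster, in the clustering described at the end. They were 97.2 CPM in CSH1-high against 369.8 CPM in comparison cells of cluster 4 and 247 against 1663 CPM in cluster 7. In cluster 1 they were 115 against 101 CPM and in cluster 2 they were 39.2 against 38.3 CPM, close in both classes. CER1 was at 12.8 against 103 CPM in cluster 4 and at 84.2 against 869.6 CPM in cluster 7, but at 22.2 against 18.1 CPM in cluster 1 and at 2.96 against 1.69 CPM in cluster 2. These values rest on 1 library per cluster and are a description.

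**Figure D3:**
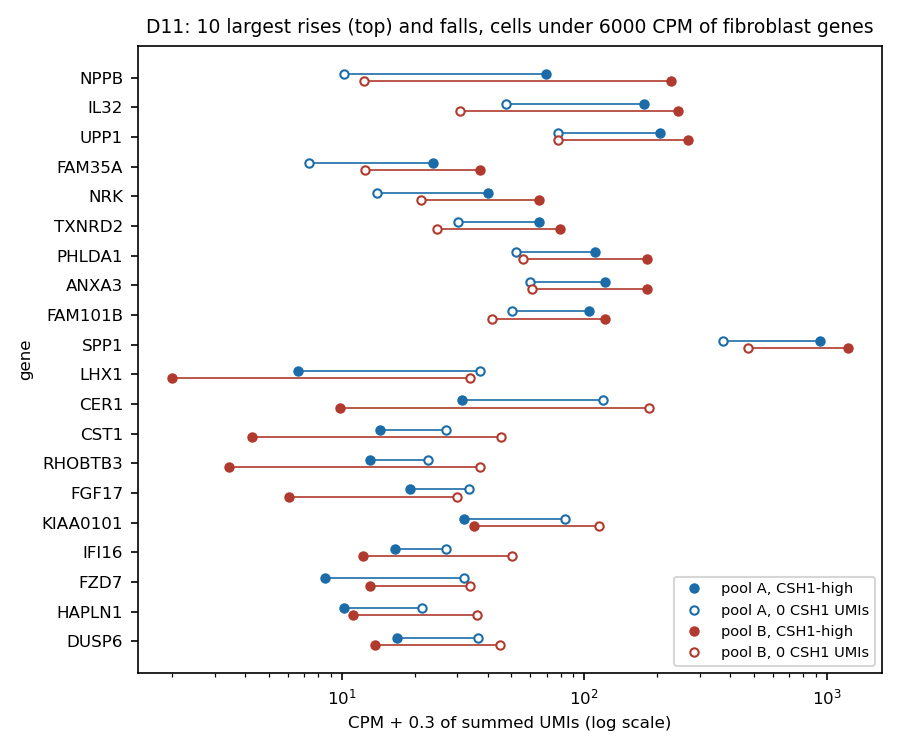
CPM + 0.3 (x axis, log scale) of the 10 largest rises and 10 largest falls (y axis) among D11 cells under 6000 CPM of fibroblast genes; filled points are CSH1-high cells, open points cells with 0 CSH1 UMIs, blue pool A and red pool B. NPPB lies between 69.5 and 228 CPM in the CSH1-high sums and between 9.96 and 12.02 CPM in the others.

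Pluripotency genes differed less under the limit of 6000 CPM on fibroblast genes. Over all genes 13.3% rose and 16.5% fell without that limit, and 4.99% and 2.15% with it, which also holds for the lists that follow. Of 21 pluripotency genes tested, 20 rose and 0 fell on D11, with a median of 0.96, but within the cells of low fibroblast transcripts 8 rose and 2 fell, with a median of 0.04. There POU5F1 was at 1254 and 1427 CPM in the CSH1-high cells and at 1162 and 1340 CPM in the comparison cells. DPPA2 rose from 46.0 to 78.7 and from 47.0 to 80.0 CPM, and USP44 fell from 109.5 to 55.8 and from 125 to 61.1 CPM. Of the 11 naive and early embryo genes tested, 7 rose and 0 fell against all comparison cells, with a median of 2.15, and 8 rose and 0 fell within the cells of low fibroblast transcripts, with a median of 1.18. There DNMT3L, a cofactor of DNA methylation in germ cells, was at 7.88 and 7.47 CPM against 0.830 and 2.19 CPM. The 0.830 CPM of pool A rests on 50 comparison cells and lies near the floor. Over all kept D11 cells, a DNMT3L UMI was present in 25.3% of the CSH1-high and 2.69% of the shallower comparison cells. Within these cells the naive and early embryo list summed to 243 and 233 CPM in pools A and B, against 122 and 170 CPM. In aliquot B1, with 11 CSH1-high cells, it went the other way, at 109 against 152 CPM.

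Contractile genes had different counts in the 2 comparisons, with the same shares over all genes beside them. Of 23 tested (ACTA1 left out), 3 rose and 12 fell against all comparison cells, whereas 10 rose and 0 fell within the cells of low fibroblast transcripts. There TAGLN was at 1571 and 1363 CPM against 1184 and 627 CPM, and ACTC1, cardiac actin, at 635 and 657 CPM against 436 and 152 CPM. In the retinoic acid list 10 of 20 tested genes fell and 2 rose against all comparison cells, and 7 fell and 0 rose within the cells of low fibroblast transcripts, among them CRABP1 and CRABP2, which bind retinoic acid in the cytoplasm, and RDH10. In the p53 and stress list 3 of 17 rose and 4 fell against all comparison cells, and 8 rose and 0 fell within the cells of low fibroblast transcripts, GDF15 from 15.4 to 32.8 and from 26.1 to 57.9 CPM. Of 43 S phase genes 29 rose and 0 fell against all comparison cells, and 1 rose and 0 fell within the cells of low fibroblast transcripts. Of 54 G2M genes 37 rose and 1 fell, and then 5 and 1. Under the limit the share of S phase genes that rose was below that over all genes.

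The remaining lists are given against all comparison cells first and then under the limit on fibroblast genes, where 13.3% and 4.99% of all genes rose and 16.5% and 2.15% fell. Shares near these are no result about a list. Of 18 epithelial genes, 15 rose and 0 fell, and then 8 and 0. The 6 transfected reprogramming factors rose, and then 2 rose and 0 fell. Of 21 matrix proteases and inhibitors, MMP9 left out, 3 rose and 15 fell, and then 3 and 0. Of 15 YAP and TEAD genes 2 rose and 8 fell, and then 2 and 1. Of 20 BMP and WNT targets 3 rose and 6 fell, and then 1 and 5. Among 11 genes of prolactin and growth hormone receptor signalling, 1 rose and 5 fell, and then 0 and 1. GHR had 2 UMIs in the 513 CSH1-high cells and 24 in the 2345 comparison cells, too few to compare. Of 6 extravillous trophoblast genes 1 rose and 3 fell, and then 1 and 0. Of 6 amnion genes 1 rose and 2 fell, and then 0 and 1. Of 11 neural genes 0 rose and 3 fell, and then 1 and 2.

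CSH1-high cells of D9 (42 and 40 cells) and D13 (48 and 73 cells) were compared in the same fit. On D9, 1151 genes were higher (6.8%) and 1288 lower (7.61%, 14.4% in all), and on D13, 495 were higher (2.93%) and 514 lower (3.04%, 5.96% in all). The count of D9 was 414 without pool A and 415 without pool B, and that of D13 was 81 without pool A. Of the 2254 genes higher on D11, 915 were also higher on D9, which is 40.6% of the D11 list and 79.5% of the D9 list, and 435 on D13, which is 19.3% and 87.9%. Under the limit on fibroblast genes 325 were higher on D11 and D9 (38.5% and 45.3%), 30 higher on D11 were lower on D9, and 96 were lower on both (26.4% and 11.6%). Each of the 10 named rises of D11 passed in the same direction on D9 and, except NPPB (0.23, edgeR adjusted p = 0.666), on D13. NLRP7 had a log2 fold change of 2.40 on D9 and 3.26 on D13.

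Under the limit on fibroblast genes, 717 genes were higher (4.24%) and 830 lower (4.91%, 9.14% in all) on D9, and 625 were higher (3.69%) and 330 lower (1.95%, 5.64% in all) on D13. IL32 rose on all 3 days there, by 2.70 on D9, 2.79 on D11 and 3.50 on D13 on the log2 scale. NPPB rose by 3.08 on D9 and 4.21 on D11. On D13 it passed at 0.60 (edgeR adjusted p = 0.00229), although its pools went opposite ways, with 167 against 80.8 CPM in pool A and 42.7 against 48.3 CPM in pool B. Of the 16 mesendoderm genes 3 rose and 0 fell on D9, and 1 rose and 8 fell on D13. CER1 had -1.18 on D9, where it did not pass (edgeR adjusted p = 0.618), and fell by 2.55 on D13. Its D9 value lies near the floor. Over all kept cells of D9, CER1 was at 0.717 and 0.373 CPM in the comparison cells of pools A and B, so D9 can hardly show a fall. The contractile list kept its direction, with 12 rises and 0 falls on D9 and 11 and 0 on D13, ACTA1 included. Of 17 p53 and stress genes 1 rose and 5 fell on D9, and 7 rose and 0 fell on D13.

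The class effect itself differed between D11 and D9 for 35 genes (0.207%) and between D11 and D13 for 36 (0.213%). With the limit on fibroblast genes these counts were 647 (3.82%) and 50 (0.296%). That fit drew more on the spread shared over genes, with 54.0 against 9.33 prior degrees of freedom. Without that limit SERPINB9, an inhibitor of granzyme B, had 1.73 on D11 against -0.44 on D9. DNMT3B and CDH1 had larger effects on D9 (2.16 and 2.55) than on D11 (0.75 and 1.06). DKK1, an inhibitor of WNT signalling, had 2.31 on D9 and -1.41 on D11 under that limit, and the difference of -3.72 passed (edgeR adjusted p = 4.29e-09). The metallothioneins MT1H, MT1G and MT1X had larger effects on D11 than on D13.

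Across classes of CSH1 level ACTA1, IL32, NPPB and NLRP7 were higher in each successive class in pool B, while DPPA3 was at 33.5 CPM in the class of 200 to 1000 CPM and at 30.8 CPM in the highest. ACTA1 was at 242, 461, 1273, 1735 and 2995 CPM in cells with 0 UMIs, under 50, 50 to 200, 200 to 1000 and at least 1000 CPM of CSH1. In pool A, whose fibroblast-rich cells carried more CSH1, ACTA1 was at 480 and 492 CPM in the classes under 50 and 50 to 200 CPM and reached 1890 and 2676 CPM above 200 CPM. NPPB reached 373 CPM in the highest class of pool B and 139 CPM in that of pool A. CER1 was at 7.60 and 12.2 CPM in the highest classes of pool B and at 115 CPM in cells with 0 UMIs.

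**Figure D4:**
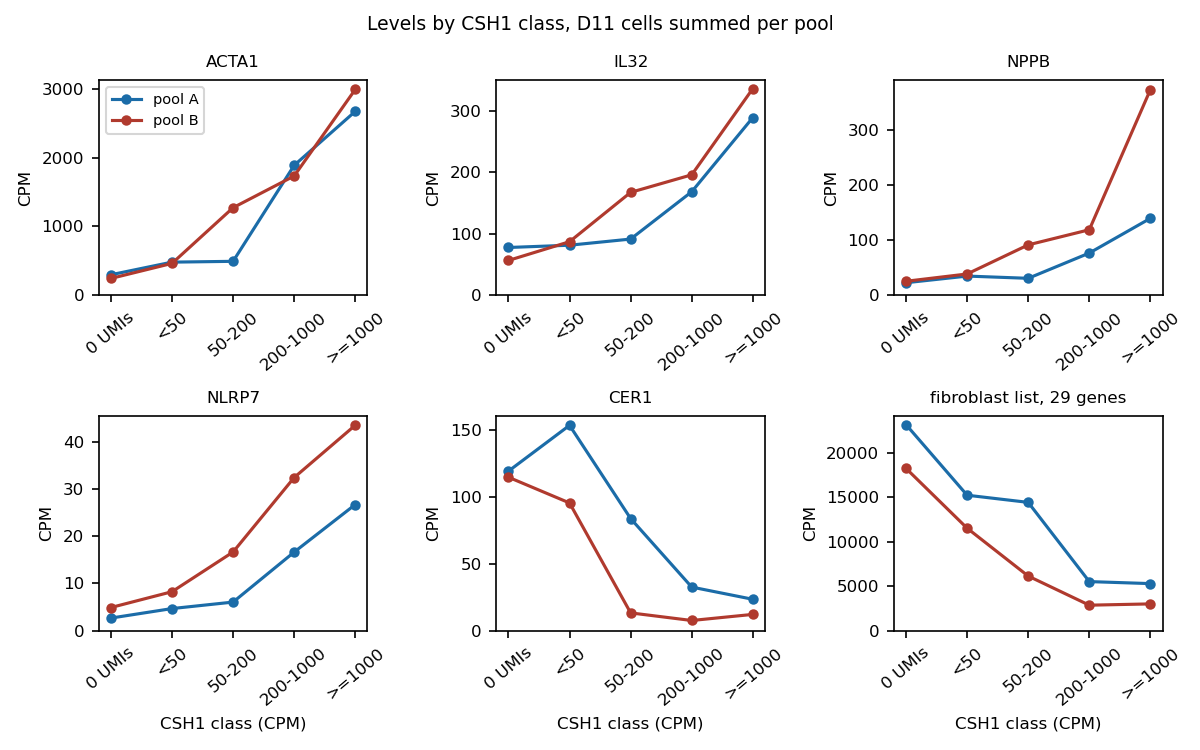
CPM of 5 genes and of the fibroblast list (y axes, starting at 0) in D11 cells summed by CSH1 class (x axis), blue pool A and red pool B. ACTA1 rises from 242 to 2995 CPM in pool B and from 296 to 2676 CPM in pool A, and the fibroblast list is lower in the highest than in the lowest class in both pools.

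The CSH1-high cells did not form a cluster of their own. In a clustering of the D11 cells without the locus genes, 203 of them lay in cluster 1 (1077 of its 1105 cells from library A), 150 in cluster 4 (662 of 691 from B2), 117 in cluster 2 (917 of 932 from B2), 31 in cluster 7 and 8 in cluster 10 (78 of 80 cells from B1), and 4 in other clusters. Within a cluster they were at most 21.7% of the cells. At the lower and higher resolutions 0.3 and 1.2 this largest share was 18.2% and 31.7%. The clusters followed the libraries, so cluster sizes are not compared between pools. ACTA1, NPPB and NLRP7 were higher in the CSH1-high cells of both main B2 clusters, a description with 1 library each. In cluster 2 ACTA1 was at 916 CPM in CSH1-high against 150 CPM in comparison cells and NPPB at 7.08 against 2.51 CPM, and in cluster 4 ACTA1 was at 3229 against 795 CPM and NPPB at 399 against 62.9 CPM. NLRP7 was at 35.6 against 10.3 CPM in cluster 2 and at 43.1 against 4.89 CPM in cluster 4.

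**Figure D5:**
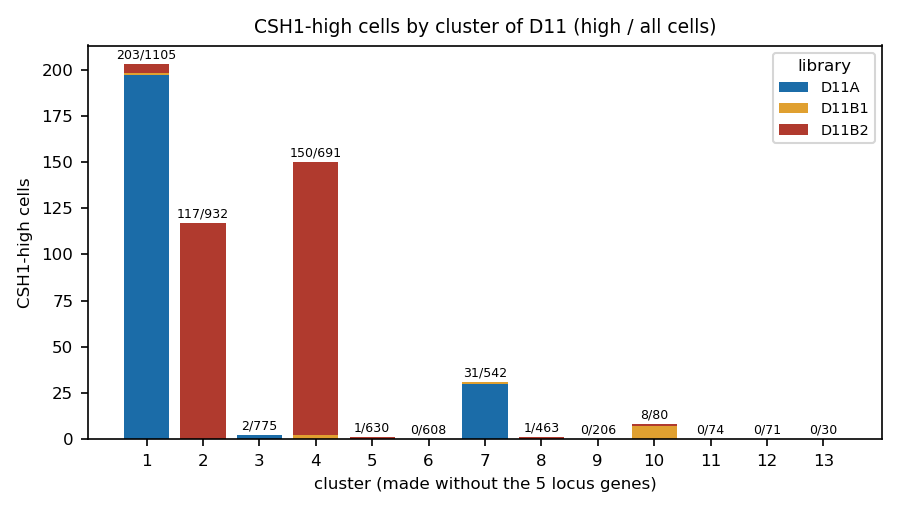
Number of CSH1-high cells (y axis) in each cluster of D11 cells (x axis), coloured by library, with CSH1-high cells and all cells printed above each bar. Clusters 1, 2 and 4 hold most of the 513 cells.

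Other groups of D11 cells crossed this class in part. Cells with a UMI of both DPPA3 and ALPPL2 numbered 386, of which 122 were CSH1-high, which is 23.8% of the CSH1-high cells and 31.6% of that group, and 56 were comparison cells (2.39% of these), which were shallower. ACTA1 reached 1000 CPM in 760 cells, of which 308 were CSH1-high, which is 60.0% of the CSH1-high cells and 40.5% of that group, and 121 were comparison cells (5.16% of these). CER1 reached 200 CPM in 222 cells, of which 3 were CSH1-high.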

How the data were processed

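Cells of 22 libraries, 2 pools on each of 8 days, were measured by 3′ droplet RNA sequencing. The authors deposited raw UMI counts per gene and cell for 33694 genes, and the submitters' processing notes name Cell Ranger 2.2. Kept cells, CSH1 classes and CPM were computed from these counts. UMIs were summed per pool and class, aliquots added, and tested with edgeR 4.0.16 (quasi-likelihood, TMM, Benjamini-Hochberg over 16919 genes with a UMI in at least 1% of kept D11 cells). The fit used 14 sums of the 7 pools with at least 20 cells in each class (both pools of D9, D11 and D13, and pool B of D15), a term per pool and a class effect per day, which left 3 residual degrees of freedom. The spread shared over genes added 9.33 prior degrees of freedom, and 54.0 in the fit under the limit on fibroblast genes. Both classes of a pool come from 1 suspension, so the pool pairs them, and the differences between pools correlated across genes between classes (0.1 on D9, 0.433 on D11, 0.501 on D13).

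The members and gene lists were chosen with earlier results of these data known. Named genes were the given markers, list members, the 10 largest rises and falls at 20 CPM or more with the same direction in both pools and aliquots, and the 5 largest differences each way between D11 and D9 or D13, without locus, mitochondrial and ribosomal protein genes. Tests of the markers CSH1, CSH2, ACTA1, CYP26A1 and MMP9 on D11 are not reported, but they and the locus genes stayed in the fit and its counts of called genes. The limit of 6000 CPM on fibroblast genes, its alternatives and the run without aliquot B1 were added after seeing the data, and the cells that it compares gave their own fit. Leiden clusters (igraph 0.11.9, resolution 0.6, 2000 genes, 30 components, 30 neighbours) left out the locus genes. Doublets were scored per library (Scrublet in scanpy 1.11.5) and not removed, and the 5% highest scores, which held 12 of 229, 0 of 11 and 21 of 273 CSH1-high cells of A, B1 and B2, were left out in an alternative. DESeq2 1.42.0 was another. Gene positions come from GENCODE v44 and promoters from RefSeq, both on GRCh38.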

Additional observations from a re-analysis of the deposited data

Results flagged for a closer look

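By the edgeR test of the difference, the class effect differed for 35 genes between D11 and D9 and for 36 between D11 and D13. Listed here are 20 of them, the 5 largest differences each way for each neighbouring day, at 20 CPM or more. Against D9 the difference of log2 fold changes (D11 minus D9) was 2.17 for SERPINB9, 2.05 for DDIT4, 1.63 for C9orf135, 1.59 for LEFTY2 and 1.54 for FAM35A, and it was -1.96 for RP11-568A7.4, -1.49 for CDH1, -1.48 for SCG3, -1.41 for DNMT3B and -1.40 for ARHGAP29. Adjusted p-values ran from 7.39e-05 for DDIT4 to 0.00968 for SCG3. SERPINB9, DDIT4 and LEFTY2 had opposite signs on the days, LEFTY2 with 0.87 on D11 and -0.72 on D9. Within the limit on fibroblast genes ARHGAP29 no longer passed (-0.38, adjusted p = 0.265).

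Against D13 the difference (D11 minus D13) was 1.43 for KIF1A, 1.198 for MT1H, 0.99 for MT1G, 0.97 for PODXL and 0.88 for MT1X, and it was -2.05 for USP53, -1.84 for CD44, -1.62 for CEBPD, -1.58 for ARID5B and -1.50 for VIM. Within the limit on fibroblast genes USP53, CD44 and CEBPD no longer passed (adjusted p = 0.0893, 0.854 and 0.835). FGF17, singled out after its values were seen, had -1.49 on D11 and -1.62 on D13 within that limit and 1.66 on D9 (D9, adjusted p = 4.44e-05).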

How the results depend on the processing

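The D11 count of 5047 genes stayed within 1.5 times under the other settings tried except the limit on fibroblast genes (1207), no replicate block (656), and leaving out a pool (2592 to 2739). Without the replicate block 5 of the 20 named genes of D11 lost their call and none changed sign. Under the limit on fibroblast genes 9 of the 20, all of them falls, lost their call, and 5 of these had the opposite sign, LUM at 0.075, EREG at 0.85, MMP1 at 0.22, DCN at 0.44 and COL8A1 at 0.12. LUM, DCN, PRRX1 and POSTN are among the genes summed for that limit, which in part sets their values. The other settings tried for the 20 named genes of D11 changed no call. On D9 the count of 2439 became 1547 with the limit on fibroblast genes, 183 with no replicate block and 414 to 415 without a pool. On D13 the count of 1009 became 15 with at least 50 CSH1-high cells per pool, 1748 with no gene filter, 13 with no replicate block and 81 to 1089 without a pool, the lowest without pool A. DESeq2 called 3531, 2229 and 1002 genes on D11, D9 and D13, with 62.0% higher on D13 against 49.1% with edgeR. Within the limit on fibroblast genes the D11 count of 1207 became 5 with no replicate block, where all 20 named genes lost their call, and 204 to 823 without a pool, the lowest without pool B, where 5 of its 20 named genes lost their call. The count of genes whose effect differed from D9 rose from 35 to 647 with that limit. The CSH1-high share of pool A was 15.7% at 100 CPM and 2.60% at 1000 CPM of CSH1, and that of pool B 11.2% and 3.66%. At cluster resolution 1.2, 5 clusters held 90% of the CSH1-high cells, against 3. The causes were not tested.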
